A study of Mus musculus with 4 samples.

Results

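The genes described here are 39 genes of the actin cytoskeleton, its contractile apparatus and the focal adhesions to which it is anchored, out of 22180 genes tested. They were chosen by name, as array rows whose single platform gene symbol was one of the 39, and where a gene had several rows the one with the highest mean over all arrays was kept. Each of the 39 was found, 5 of them with more than 1 row. The RNA came from BR5FVB1-Akt, a mouse line that the labels describe as ovarian cancer, and was read on 4 Affymetrix Mouse Gene ST arrays, 1 per sample. The 2 control samples were cells grown without decitabine, and the 2 decitabine samples were the same line given 10 uM decitabine for 72 h. Decitabine is a cytidine analogue that is built into replicating DNA, where it traps DNA methyltransferases. All samples came from 1 cell line in serum-containing medium, and the sample titles call the replicates of each group biological. The labels describe neither a vehicle in the control cultures nor how the replicates were set up, so p-values measure the spread between these arrays.

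Actin filaments are pulled by myosin II, decorated by tropomyosins, calponins and caldesmon, bundled by alpha-actinin and filamin, and tied to integrins at focal adhesions by talin, vinculin and zyxin. Many of these genes are known targets of the transcription factor SRF, whose cofactors of the myocardin family bind monomeric actin, so that actin assembly and the transcription of actin genes are linked. In cultured epithelial, mesothelial and fibroblast cells, smooth muscle actin, transgelin and calponin are commonly used as markers of a contractile state.

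The deposited values, read as log2 expression, had a median over all rows between 4.6 and 4.7 on each of the 4 arrays. Of the markers that define cell types, the keratin gene Krt18 stood at 9.25 and 9.22 on the control arrays, the mesothelial and ovarian surface factor Wt1 at 10.78 and 10.86, and the mesenchymal filament gene Vim at 11.61 and 11.56. The epithelial adhesion gene Epcam was at 4.68 and 4.62, the leukocyte gene Ptprc at 3.01 and 3.07, the endothelial gene Pecam1 at 6.10 and 5.89 and the smooth muscle myosin gene Myh11 at 5.24 and 5.17. Smooth muscle markers were mixed, since Des stood at 9.81 and 9.60 and Smtn at 9.29 and 9.17. Of the 11 measured, 4 lay above the median level of all genes. Among 10 fibroblast markers 8 lay above that level, with Dcn at 11.78 and 11.74. Each of these values is a level of its own probes, and no detection limit could be set for any of them.

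With decitabine, most of the actin, contractile and focal adhesion genes were higher. Of the 39 members 34 had a positive log2 fold change, against 50.7% of all genes, and their median was 0.39, against 0.00 over all genes tested. The members were chosen with earlier results of these data known. The shares of all genes are therefore given as a scale and are no test of the list. On 31 members both decitabine arrays lay above both control arrays, an order held by 23.4% of all genes, and on 2 members both lay below, an order held by 22.5%. In limma with 1 variance prior for all levels and Benjamini-Hochberg adjustment over all genes, 1 member passed an adjusted p of 0.05, the adhesion scaffold gene Tgfb1i1, which rose 2.96-fold, while 0.131% of all genes passed as higher and 0.0135% as lower. No member passed as lower. At an unadjusted p under 0.05 in that fit, 25 members were higher and 0 lower, against 7.34% and 6.97% of all genes. In whole-culture RNA, more RNA per cell and more cells of a kind that expresses a gene cannot be told apart.

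When the variance prior was allowed to follow the level of a gene (an intensity trend), 23 members rose and 0 fell, against 3.68% of all genes higher and 3.60% lower. Of the members 37 lay above the median level of all genes, and among genes above that level 6.91% were called higher with the trend. The adjusted p of the 23 lay between 2.14e-05 and 0.0172 with the trend and between 0.0442 and 0.295 without it, and over the alternatives computed for them (21 for Actg2 and 23 for each of the others) it ran from 1.99e-07 to 0.649. With 1 array left out at a time the median log2 fold change of the members ran from 0.37 to 0.42. Fewer members passed in the trend fit without either control array. When all rows of the arrays were fitted with the trend, 5 members rose, against 114 of the 22180 genes. The members that passed in the trend fit whichever array was left out were Tgfb1i1, Acta2, Cnn1, Cnn2, Tagln, Tagln2, Actn1, Myh9, Pdlim5 and Csrp1. No such share was computed over all genes. The 5 with all rows fitted were Tgfb1i1, Acta2, Actn1, Cnn2 and Myh9. Below, a member is said to have risen with the trend when it passed in the fit with all 4 arrays, and each log2 fold change is decitabine minus control with the standard error of the fit without the trend.

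**Figure D1:**
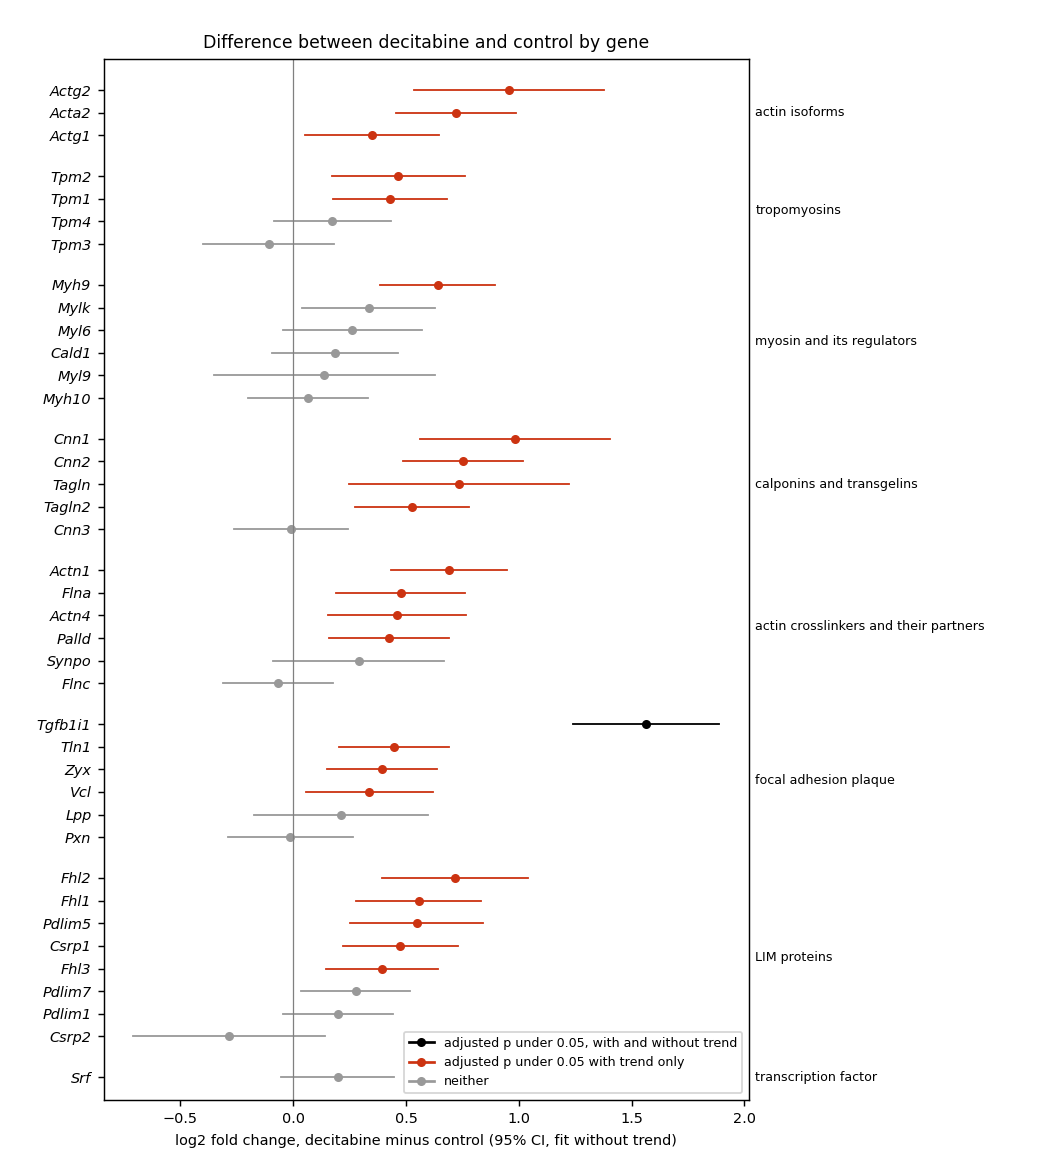
Log2 fold change (decitabine minus control, x axis) of the 39 genes, grouped by role and ordered by size within each role, with points for the estimate and bars for the 95% confidence interval of the fit without the trend, n = 2 arrays per group. Tgfb1i1, in black, passed in both fits at 1.57, the genes in red passed with the trend only, and those in grey passed in neither, with Csrp2 the lowest at −0.28.

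The size of the differences was modest. The members ranged from −0.28 to 1.57, and for 33 of the 39 the 95% confidence interval of the fit without the trend lay wholly below a 2-fold rise. The 6 whose interval reached or passed 2-fold were Tgfb1i1, Cnn1, Actg2, Cnn2, Tagln and Fhl2. The 2 control arrays differed by a median of 0.09 over the members and by at most 0.52, and the 2 decitabine arrays by a median of 0.08 and at most 0.26. Taken against the mean of the control arrays, the median member stood at 0.37 on the first decitabine array and at 0.42 on the second.

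Because SRF acts through a short DNA element, the CArG box (an A- and T-rich core between C and G, which reads as a CArG box on either strand), the promoter windows of the members were searched for it, and the boxes found are printed here beside the changes of their genes. RefSeq windows of 300 bases on build GRCm38.p6, from 250 before to 50 after a start, were at hand for 33 members in 44 windows. The 6 members without a window were Tgfb1i1, Actg2, Tagln, Pxn, Csrp2 and Synpo. The highest and the lowest log2 fold change of the members, Tgfb1i1 and Csrp2, are thus absent from the promoter counts, medians and correlations below. A box was found in 9 of the 44 windows, or 20.5%, and in 1.63% of all 32851 windows. It was present in 8 members, Actg1, Cnn2, Fhl1, Fhl2, Vcl, Myl6, Myl9 and Srf itself. In each line the box is in capitals, the strand is that of the gene, and the location and the number of bases between the last box and the start follow in the next paragraph.
Actg1: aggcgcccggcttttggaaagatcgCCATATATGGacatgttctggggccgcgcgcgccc
Cnn2: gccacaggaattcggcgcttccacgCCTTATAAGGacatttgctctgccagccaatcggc
Fhl1: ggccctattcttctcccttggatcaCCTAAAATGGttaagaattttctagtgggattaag
Fhl2, downstream start: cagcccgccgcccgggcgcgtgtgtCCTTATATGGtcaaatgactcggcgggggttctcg
Fhl2, upstream start: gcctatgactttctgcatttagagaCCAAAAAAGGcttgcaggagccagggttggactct
Vcl: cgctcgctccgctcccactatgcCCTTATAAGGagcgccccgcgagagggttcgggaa
Myl6: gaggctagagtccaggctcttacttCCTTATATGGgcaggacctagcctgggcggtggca
Myl9: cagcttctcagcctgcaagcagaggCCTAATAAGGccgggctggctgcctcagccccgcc
Srf: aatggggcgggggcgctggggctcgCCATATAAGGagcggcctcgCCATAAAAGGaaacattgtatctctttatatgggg

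The stretch of Actg1 lies at chr11:120348551-120348610 on the minus strand, with 80 bases between box and start. Cnn2 is at chr10:79988519-79988578, plus strand, with 46 bases, and Fhl1 at chrX:56779556-56779615, plus strand, with 92. The Fhl2 stretches are at chr1:43163958-43164017 and chr1:43196823-43196882, both on the minus strand, with 21 and 86 bases. Vcl is at chr14:20929148-20929205, plus strand, with 217 bases, Myl6 at chr10:128493025-128493084, minus strand, with 40, and Myl9 at chr2:156775278-156775337, plus strand, with 151. The 2 boxes of Srf are at chr17:46556190-46556269, minus strand, the nearer one 52 bases from the start.

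Only exact boxes inside these windows were counted, with CC and GG around a core of A and T alone. Variants and more distant boxes were not searched for, so a member without a box here may still hold one. The shares of members that rose were alike with and without such a box. Of the 8 members with a box, 5 rose with the trend (Actg1, Cnn2, Fhl1, Fhl2 and Vcl) and 3 did not pass (Myl6, Myl9 and Srf), and of the 25 members with a window and no box 15 rose with it. Among all genes 3.68% rose with it. The row of Actg1 is uncertain, as given below. The median log2 fold change was 0.343 with a box and 0.425 without one (a description with no test). The letters CATTCC or their reverse complement, which the TEAD factors are known to bind, occurred in 13 of the 44 member windows, or 29.5%, and in 14.7% of all windows, and in 0 cases overlapped a CArG box. They were found in 12 members, 7 of which rose with the trend, as did 23 of all 39 members and 3.68% of all genes.

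The members' windows were rich in CpG, the dinucleotide that DNA methyltransferases modify, with a median of 18 CpG per window against 7 in all windows. All windows include genes of any level, whereas 37 of the 39 members lay above the median level. No CpG count was taken over genes of a like level, so the richness may not be particular to the members. Taking for each member its window with the most CpG, the median was 19.5 in the 20 members that rose with the trend and 20 in the 13 that did not. Across the 33 members, which share the arrays and are not replicates, the Pearson correlation between that count and the log2 fold change was −0.20 and the Spearman rank correlation −0.15. Acta2 and Cnn1, which were among the largest rises, had 6 CpG each, whereas Cnn2, with a similar rise, had 33 and Actg1 had 50. DNA methylation itself was not measured on these arrays.

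The actin isoforms were all higher in the rows used. Acta2, smooth muscle alpha-actin, stood at 11.26 and 11.12 on the control arrays and at 11.90 and 11.92 on the decitabine arrays. It rose with the trend by 0.72 ± 0.10 (SE, n = 2 arrays per group), a 1.65-fold difference larger than the spread of either pair of arrays (adjusted p = 0.106 without the trend). Actg2, smooth muscle gamma-actin, went from 3.96 and 4.38 to 5.15 and 5.10, a rise of 0.96 ± 0.16 with the trend, but its control values lay below the median of the arrays and 0.43 apart. For Actg1, cytoplasmic gamma-actin, the values were 10.46 and 10.50 against 10.73 and 10.93, a smaller rise of 0.35 ± 0.12 with the trend. Actg1 had 6 rows, of which 1 more held identical values on all 4 arrays, 3 others differed by 0.21 to 0.35 in the same direction and 1 by −0.35. Row numbers mostly run by chromosome, and Actg1 lies on chromosome 11. The row that fell, at 6.80 and 6.90 against 6.55 and 6.46, lay between Pecam1 of chromosome 11 and Fos of chromosome 12. The row used lay between Myh11 of chromosome 16 and Adgre1 of chromosome 17. The row that fell may thus be that of the gene itself. Actin genes and their processed copies are so alike that probes may not tell them apart, and the row of Actg1 is uncertain for that reason. Cytoplasmic beta-actin, Actb, which was not a member, stood at 0.11 ± 0.11 and did not pass.

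Among tropomyosins, the coiled-coil proteins that lie along the actin filament and gate myosin binding, the 2 genes best known for their muscle isoforms rose with the trend. Tpm1 was at 8.99 and 8.98 on the control arrays and at 9.37 and 9.46 on the decitabine arrays, and rose by 0.43 ± 0.10. Tpm2 went from 7.14 and 6.96 to 7.56 and 7.47, a rise of 0.47 ± 0.11. Tpm3, with 8.79 and 8.99 against 8.80 and 8.77, overlapped between groups (−0.11 ± 0.11). Its second row was at 0.18, with 5.23 and 5.37 against 5.43 and 5.53. In number, the row used lay between Tnnc1 and Fermt2 of chromosome 14, and the second near Casq2 and Cnn3 of chromosome 3. Since Tpm3 lies on chromosome 3, its row is uncertain. Tpm4 lay above its controls on both decitabine arrays but did not pass (0.17 ± 0.10), with 0.38 in its second row. Each of these genes makes several isoforms through alternative exons, and a row that sums probes along the transcript does not separate them.

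Of the myosin genes and their regulators only Myh9 passed with the trend. Myh9, the heavy chain of non-muscle myosin IIA, stood at 9.17 and 9.12 without and at 9.74 and 9.82 with decitabine, a rise of 0.64 ± 0.10, or 1.56-fold. Its counterpart in myosin IIB, Myh10, was at 8.84 and 8.79 against 8.82 and 8.94, overlapping groups with a difference of 0.07 ± 0.10. The light chain kinase gene Mylk (0.33 ± 0.11), the light chain genes Myl6 (0.26 ± 0.12) and Myl9 (0.14 ± 0.19), and the filament-bound regulator gene Cald1 (0.19 ± 0.11) did not pass in either fit. Myl9 was the least steady of these, with 7.75 and 7.26 in controls against 7.75 and 7.54 with decitabine, and its difference turned to −0.11 without control replicate 2.

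Calponins and transgelins, actin-binding proteins of the same domain family that steady filaments, rose together except for Cnn3. Cnn1, smooth muscle calponin, went from 7.63 and 7.21 to 8.46 and 8.35, a rise of 0.98 ± 0.17 with the trend and 1.98-fold in size. Cnn2 was at 8.98 and 8.85 against 9.64 and 9.69, a rise of 0.75 ± 0.10. Cnn3, the acidic calponin of many non-muscle cells, overlapped between groups, with 11.85 and 11.84 against 11.88 and 11.79 and a difference of −0.01 ± 0.10, whose sign turned to 0.0030 with quantile normalization. Tagln, also called SM22, was at 9.60 and 9.08 on the control arrays and at 10.05 and 10.10 on the decitabine arrays, a rise of 0.73 ± 0.19 with the trend that was 0.47 without control replicate 2 and 1.00 without control replicate 1. Tagln2 moved from 9.40 and 9.31 to 9.88 and 9.89, a rise of 0.53 ± 0.10, and its second row was 0.52 higher.

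The crosslinkers alpha-actinin and filamin bundle actin or hold it in networks. Actn1 had 10.28 and 10.30 in controls against 10.93 and 11.03 with decitabine, and its rise of 0.69 ± 0.10 was among the 4 that also passed without a trend when genes below the 25th percentile of level were left out, together with Tgfb1i1, Acta2 and Cnn2. Actn4, the other non-muscle alpha-actinin, went from 10.93 and 10.86 to 11.24 and 11.47, a rise of 0.46 ± 0.12 with the trend. Flna, the widely expressed filamin, was at 7.17 and 7.30 against 7.64 and 7.78, a rise of 0.48 ± 0.11 with the trend. Flnc, the muscle filamin, did not follow it, at 9.60 and 9.62 against 9.55 and 9.53 (−0.07 ± 0.09). Palld, a scaffold that binds alpha-actinin, had 8.99 and 9.11 against 9.51 and 9.45 and rose by 0.43 ± 0.10 with the trend, while the alpha-actinin partner Synpo did not pass at 0.29 ± 0.15.

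In the focal adhesion plaque the largest difference of all 39 was found. Tgfb1i1, also called Hic-5, is a LIM-domain scaffold related to paxillin that shuttles between adhesions and the nucleus, and its row 17483696 belongs to a gene on chromosome 7. It stood at 6.41 and 6.34 on the control arrays and at 8.07 and 7.81 on the decitabine arrays. Its log2 fold change was 1.57 ± 0.13, with a 95% confidence interval of 1.24 to 1.89 and an adjusted p of 0.0442 in limma. The change was 1.44 to 1.70 with any 1 array left out. Tgfb1i1 passed in 16 of 23 alternatives, among them every one chosen after seeing the data, each of which used the trend. Of those planned beforehand, it passed with quantile normalization, centred arrays, both filters on level, the trend and the mean of a gene's rows. It was lost with robust eBayes (adjusted p = 0.0527), with the replicate number as a block (0.116) and with all rows tested (0.330). It was also lost when any 1 array was left out without the trend.

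The adhesion genes Tln1, Zyx and Vcl rose with the trend by smaller amounts. Tln1, talin, which links integrin tails to actin, was at 8.94 and 8.89 against 9.36 and 9.36, a rise of 0.45 ± 0.10. Zyx, zyxin, which gathers at strained filaments, was at 9.19 on both control arrays against 9.56 and 9.61, a rise of 0.39 ± 0.10. Vcl, vinculin, which binds talin under force, was at 10.42 and 10.29 against 10.63 and 10.75, a rise of 0.34 ± 0.11. In these 3 genes both decitabine arrays lay above both control arrays. Pxn, paxillin, overlapped between groups with 7.62 and 7.51 against 7.49 and 7.62 (−0.01 ± 0.11), and the zyxin relative Lpp did not pass at 0.21 ± 0.15, with its second row at −0.01.

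**Figure D2:**
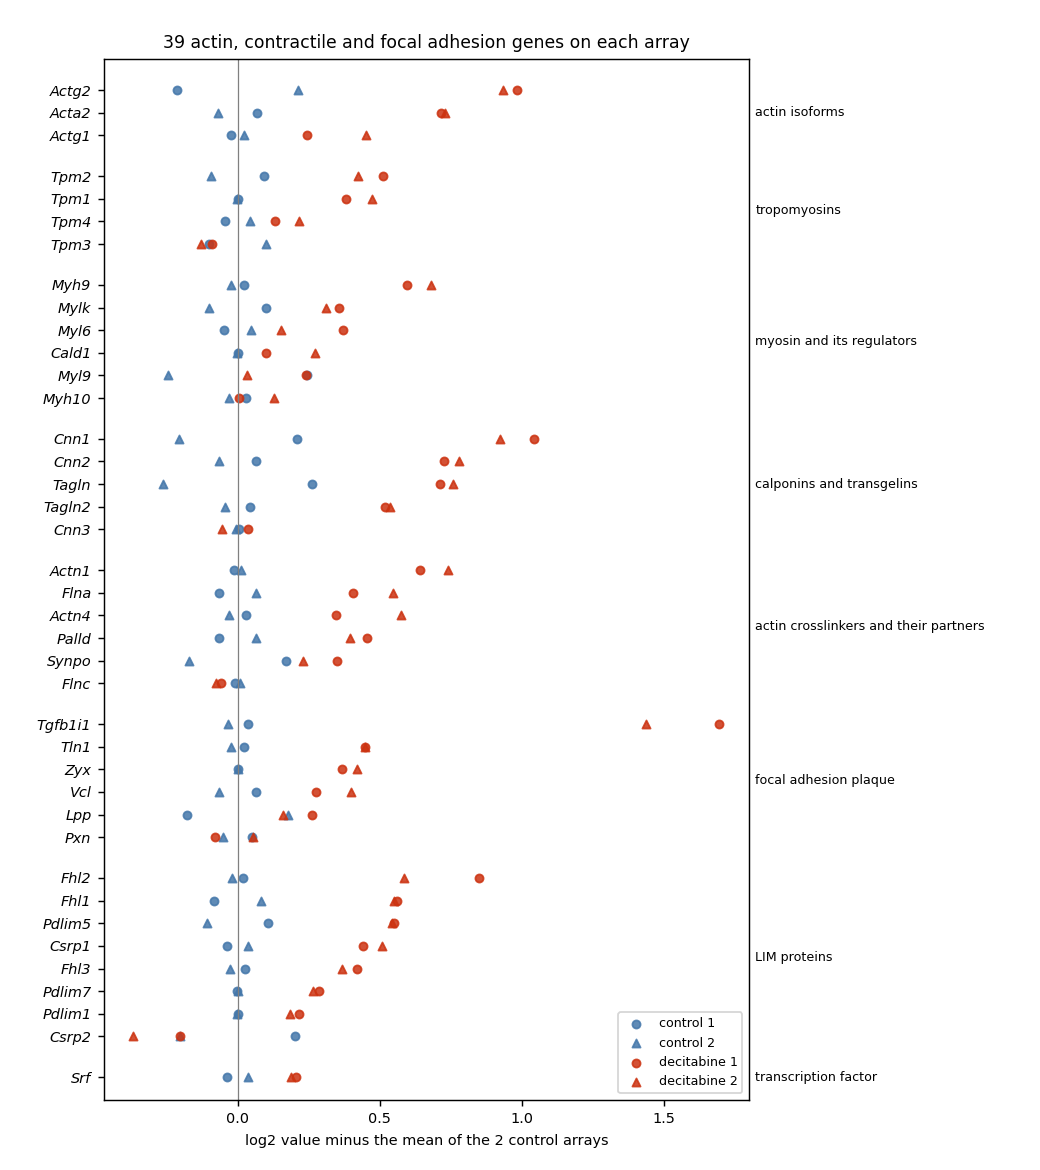
Log2 value of each gene on each of the 4 arrays, minus the mean of its 2 control arrays (x axis), with genes grouped by role as rows, circles for replicate 1, triangles for replicate 2, blue for control and red for decitabine. The red points stand to the right of both blue points for 31 genes, farthest for Tgfb1i1, and overlap them for Tpm3, Myl9, Myh10, Cnn3, Pxn and Lpp.

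LIM proteins, which bind partners at adhesions and along stress fibres and in part shuttle to the nucleus, had 5 of 8 members that rose with the trend. Among all genes 3.68% rose with it, and 6.91% of those above the median level, where all 8 lay. The share was close to that of the whole list, 23 of 39. Of the FHL genes, Fhl2, a cofactor of transcription as well as an adhesion protein, went from 6.87 and 6.83 to 7.70 and 7.43 and rose by 0.72 ± 0.13. Fhl1 was at 7.26 and 7.43 against 7.91 and 7.90, a rise of 0.56 ± 0.11, and Fhl3 at 7.82 and 7.76 against 8.21 and 8.16, a rise of 0.39 ± 0.10. All 3 FHL genes thus had separate groups. Pdlim5, which binds alpha-actinin through its PDZ domain, was at 8.89 and 8.68 against 9.33 and 9.33, a rise of 0.55 ± 0.12. Its relatives Pdlim7 (0.28 ± 0.09) and Pdlim1 (0.20 ± 0.10) were above their controls on both arrays without passing. Csrp1, found on actin bundles, was at 10.20 and 10.28 against 10.68 and 10.75, a rise of 0.48 ± 0.10. Csrp2 was the lowest of the 39, at 5.75 and 5.35 against 5.35 and 5.18 (−0.28 ± 0.17), and did not pass. Without control replicate 1 its difference was −0.08, and that of Tpm3 was then lower.

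Srf, which encodes the transcription factor that many members share, was at 8.53 and 8.61 on the control arrays and at 8.78 and 8.76 on the decitabine arrays. The difference of 0.20 ± 0.10 did not pass in either fit, and its 95% confidence interval ran from −0.05 to 0.45. Its cofactor genes Mrtfa (0.15 ± 0.12) and Mrtfb (−0.09 ± 0.11) did not pass either.

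Genes of a family were also set against each other. The ratio of 2 family members on an array was compared between the groups for 24 pairs from 11 families, which were drawn up after the values were seen. In 20 pairs the ratios of the decitabine arrays lay apart from those of the control arrays. No such share was computed over pairs of other genes, so the 20 of 24 is a description without a scale. Of all single genes, 23.4% were separated in this way as higher with decitabine and 22.5% as lower. An exact two-sided permutation test over 2 against 2 arrays cannot go below p = 0.333, the value of those 20 pairs, so none could pass, and the gaps are given as measurements. The gene of the larger change is put first, so each change is positive by construction. Pairs with Tpm3 or Actg1 rest on rows that are uncertain, as given above. Tgfb1i1 over Pxn changed most, by 1.58 on the log2 scale, with ratios of −1.20 and −1.17 in controls against 0.59 and 0.20 with decitabine. Cnn1 over Cnn3 changed by 0.99, Cnn2 over Cnn3 by 0.76, Csrp1 over Csrp2 by 0.76, Actg2 over Actg1 by 0.61, Myh9 over Myh10 by 0.57 and Flna over Flnc by 0.54. For Myh9 over Myh10 the ratios were 0.32 and 0.33 against 0.92 and 0.88. Tpm2 over Tpm1, with a change of 0.04, was the smallest, and it overlapped between groups, as did Tagln over Tagln2, Fhl2 over Fhl1 and Actg2 over Acta2.

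**Figure D3:**
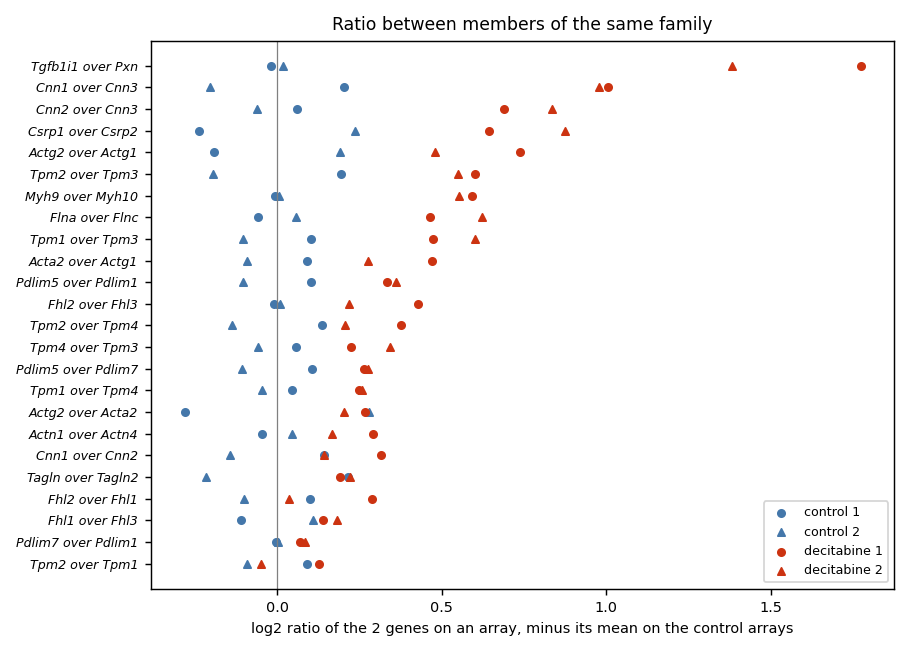
Log2 ratio of 2 genes of a family on each array, minus its mean on the control arrays (x axis), for 24 pairs ordered by the change, with the gene of the larger change named first, circles for replicate 1, triangles for replicate 2, blue for control and red for decitabine. Tgfb1i1 over Pxn stands at the top with 1.58, and the ratios of 20 pairs do not overlap between the groups.

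The wider pathway was read from 3 lists of genes that are not members, holding 60 measured genes. Of these 13 rose and 2 fell with the trend, against 3.68% and 3.60% of all genes. Above the median level lay 53 of the 60, and among all genes above it 6.91% rose with the trend. In limma without the trend 0 of the 60 passed. Before adjustment 16 had a p under 0.05 as higher and 3 as lower, against 7.34% and 6.97% of all genes. The median log2 fold change of the 60 was 0.10, against 0.39 for the members. Among 16 cofactors and other targets of SRF 2 rose with the trend, Ccn2 (1.41 ± 0.17) and Ccn1 (0.62 ± 0.14), both secreted matricellular proteins, and the list's median was 0.12.

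Of 23 genes of actin assembly and turnover 7 rose and 1 fell with the trend, against 3.68% and 3.60% of all genes, with a median of 0.05. The actin monomer-binding gene Tmsb4x (0.54 ± 0.10) and the membrane linker gene Msn (0.50 ± 0.09) had the smallest p-values, and the 1 that fell was the severing protein gene Gsn (−0.34 ± 0.11). Of 21 other focal adhesion genes 4 rose and 1 fell, with a median of 0.15. The adaptor gene Bcar1 (0.58 ± 0.10) and the fibronectin receptor subunit gene Itga5 (0.47 ± 0.10) led those that rose, and the parvin gene Parvb (−0.64 ± 0.15) was the 1 that fell. The third gene of the paxillin family, Lpxn, was at 0.30 ± 0.18 and did not pass. Mrtfa, Mrtfb, Gsn, Parvb, Lpxn, Wt1, Pdgfra, Smtn and Dcn were named after their values were seen.

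**Figure D4:**
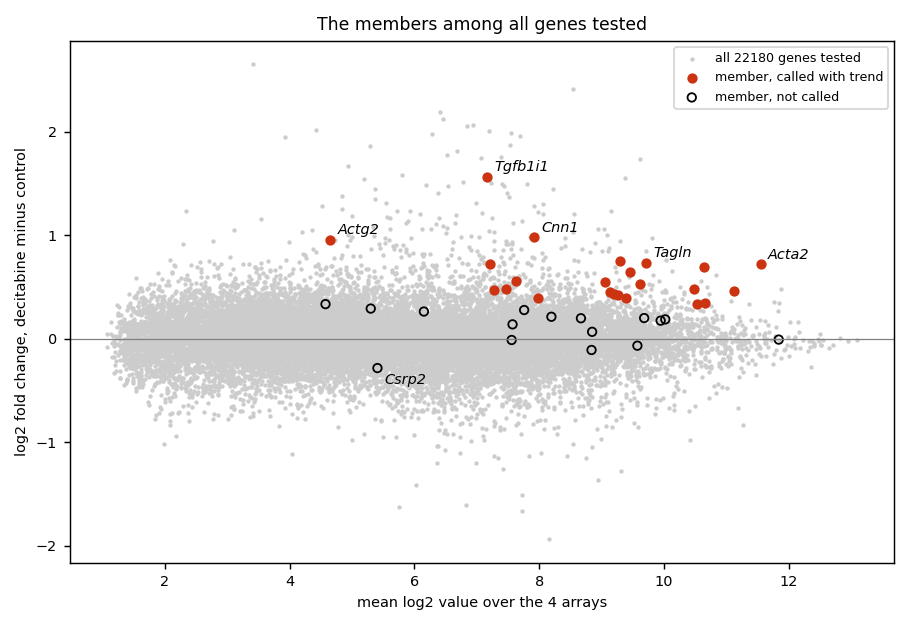
Log2 fold change (decitabine minus control, y axis) against mean log2 value over the 4 arrays (x axis) for all 22180 genes in grey, with members that rose with the trend as filled red points and the others as open circles. The members lie mostly on the right, 37 above the median level, and 34 of 39 lie above 0.

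Markers of muscle and of other cell types were compared on the same arrays. For the counts in this and the next paragraph, 3.68% of all genes rose and 3.60% fell with the trend. Of the 817 genes that rose 766 lay above the median level, or 6.91% of the genes there. Above it lay 8 of 10 epithelial and 8 of 10 fibroblast markers. Only 4 of 11 smooth muscle, 4 of 12 striated muscle, 2 of 9 leukocyte and 1 of 8 endothelial markers did. A count of 0 in a list of mostly low genes therefore tells little. Before adjustment in limma without it, 7.34% of all genes had a p under 0.05 as higher and 6.97% as lower. In limma 0 of 11 mature smooth muscle markers passed in either fit, while before adjustment 1 had a p under 0.05 as higher and 0 as lower, and their median was 0.09. Their mean log2 value was 5.52 and 5.48 in controls against 5.48 and 5.63 with decitabine, and Myh11 (0.09 ± 0.18) and Des (0.19 ± 0.12) did not pass. The smallest p-values of the list belonged to the coactivator gene Myocd (0.32 ± 0.11) and the integrin gene Itga8 (−0.21 ± 0.10), neither of which passed. Of 12 striated muscle markers 0 rose and 1 fell with the trend, the troponin gene Tnni1 (−0.60 ± 0.17), while Tnnc1 was at 0.41 ± 0.12.

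Of 10 epithelial markers 5 rose and 1 fell with the trend, with list means of 7.24 and 7.17 in controls against 7.52 and 7.42 with decitabine. Msln (0.86 ± 0.10), Krt14 (0.79 ± 0.10), Krt8 (0.53 ± 0.13) and Krt18 (0.33 ± 0.09) were among those that rose, Wt1 (−0.28 ± 0.10) fell, and Epcam (0.23 ± 0.12) did not pass. Of 10 fibroblast markers 2 rose and 1 fell, the former being Thy1 (1.48 ± 0.17) and Vim (0.35 ± 0.11) and the latter Pdgfra (−0.28 ± 0.10), with list means of 8.29 and 8.25 against 8.50 and 8.42. Of 9 leukocyte markers 1 rose, Cd68 (0.45 ± 0.10), while Itgam (0.50 ± 0.11) and Ptprc (0.16 ± 0.10) did not pass, and the list means were 4.01 and 3.95 against 4.15 and 4.25. In limma 0 of 8 endothelial markers passed in either fit, while before adjustment 2 had a p under 0.05 as higher and 0 as lower, and Cdh5 (0.43 ± 0.14) and Kdr (0.38 ± 0.12) had the smallest p-values. The part of any of these cell states in the differences of the actin genes was not tested.

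**Figure D5:**
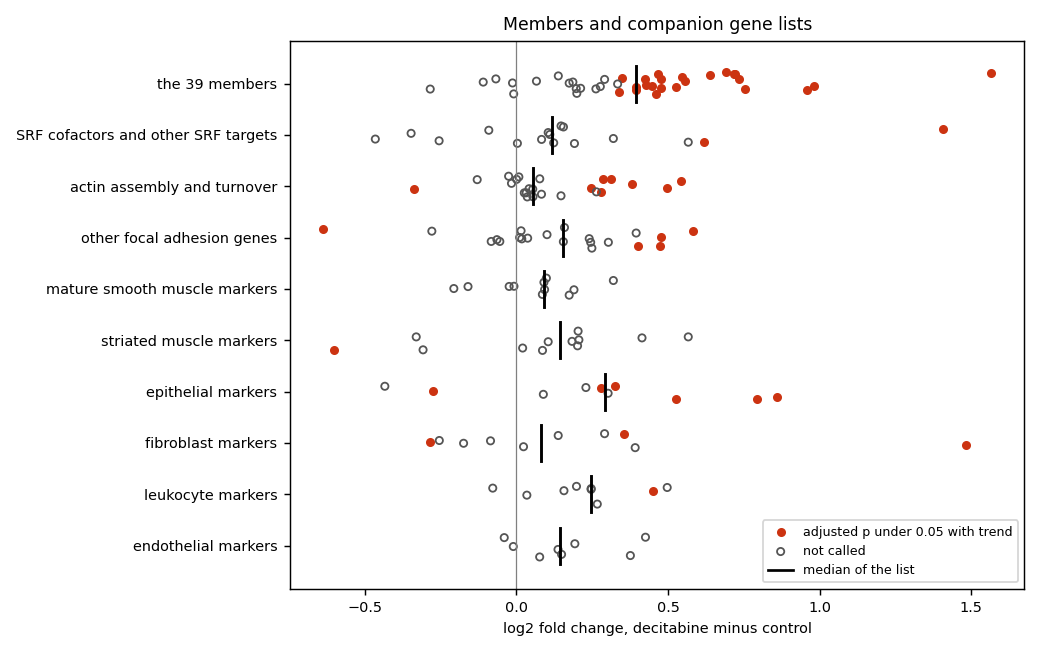
Log2 fold change (decitabine minus control, x axis) of each measured gene of the 39 members and of 9 companion lists (rows), filled where the gene passed with the trend and open otherwise, with a black line at each list's median. The members' median of 0.39 lies to the right of the medians of the 9 lists, which run from 0.05 to 0.29.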

How the data were processed

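Total RNA of 4 samples was labelled and hybridised to Affymetrix arrays, 1 per sample, per the labels' protocols. The authors deposited 1 value per row and array for 41345 rows, taken here as log2 expression from their range of 0.55 to 13.26; log base, summarisation, background correction and normalization are not given in the sources used here, and another base would change every fold change. Of the rows 23521 carried 1 gene symbol. The highest-mean row per gene left 22180 genes, with no filter on level. The number of arrays limits the precision. Sample titles gave the groups and the replicate numbers. Genes were fitted with limma 3.58.1 in R 4.3.3 (lmFit, eBayes, group as the only term, two-sided), adjusted by Benjamini-Hochberg over all genes, with an adjusted p under 0.05 as the threshold; the intensity trend is an alternative. The scripts were tested on simulated data. Promoters were searched with Python 3.11.15, and matplotlib 3.10.9 drew the figures. The members and lists were chosen with earlier results of these data known. Values on each array are given for members that passed with or without the trend and for the 6 highest and the 6 lowest log2 fold changes (5 of these below 0), with Myl9 and Srf added after their values were seen, and from each list the 2 genes with the smallest p-value are named, besides a fixed set of defining markers. Promoter windows are RefSeq's, matched by symbol and gene identifier. Alternatives were another normalization, filters on level, other rows per gene, robust eBayes, the replicate block and each array left out. A further list of pathway genes is not reported here.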

Additional observations from a re-analysis of the deposited data

How the results depend on the processing

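The median log2 fold change of the members stayed within the spread between replicate arrays under each of the 23 alternatives computed. By themselves, the trend, robust eBayes, the replicate block and the fit of all rows leave every fold change as it was, so they could not move the median. Nor could the filter at the 25th percentile, which kept all 39 members. The spread came from these same arrays, so leaving out 1 of them could hardly take the median beyond it. The count of members called lower was 0 in each alternative with all 4 arrays. Without the trend, the counts of called genes and of members called higher, 32 and 1 as reported, were 51 and 1 with arrays centred on their median, 215 and 4 among genes above the 25th percentile, 1251 and 20 among genes above the median level, 18 and 0 with robust eBayes, 0 and 0 with the replicate number as a block, 0 and 0 with all rows tested, and 0 to 0 for both when any 1 array was left out. With the intensity trend they were 1615 and 23. The following were chosen after seeing the data, each with the trend: 165 and 5 with all rows tested, 1896 and 23 with the replicate block, 1721 and 24 with quantile normalization, 1254 and 23 with centred arrays, 1595 and 23 with robust eBayes, 2128 and 24 above the median level, 338 and 11 without control replicate 1, 399 and 12 without control replicate 2, 1605 and 23 without decitabine replicate 1, and 1011 and 20 without decitabine replicate 2. The cause of these shifts was not tested. Of single members, Tpm3 turned to 0.035 with the mean of its rows, Cnn3 to 0.0030 with quantile normalization (with and without the trend) and to 0.036 without decitabine replicate 2, Myl9 to −0.11 without control replicate 2, and Pxn to 0.039 without control replicate 1 and to 0.053 without decitabine replicate 1, while over arrays left out without the trend Cnn3 ran from −0.054 to 0.036 and Pxn from −0.079 to 0.053. Deviations of same-numbered samples were not correlated over all genes (r = −0.02). With 2 arrays per group this cannot show whether the cultures were paired. No detection limit could be set, and 37 of the 39 members, all but Actg2 and Mylk, were above the median level.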
